A study of Homo sapiens with 6 samples.

Results

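A set of 9 genes outside NF-kB signalling that earlier work has named as targets of the microRNA miR-146a was followed through a capture experiment in human fibroblasts that express oncogenic RAS. They were COPS8, BRCA1, BRCA2, FADD, FAS, BCLAF1, EGFR, IRF5 and L1CAM, and each was found by its symbol in the deposited gene table. Of these 9 genes, 8 had a row among the 18234 rows used here, and all 8 held enough reads to be tested. IRF5, a transcription factor of the interferon response, was not analysed here. The 3 miR-CLIP libraries and the 3 Input libraries all came from IMR90, a line of normal fibroblasts from human lung. In both groups the cells expressed the oncogenic RAS form RASV12, were selected in 1.5 ug/ml puromycin for 3 days, were seeded on day 10 after infection and received, 24 hours later, a miR-146a mimic carrying psoralen and biotin. The miR-CLIP samples carry the label of an AGO2 antibody, and the protocol describes pulldown of AGO2 and then capture of the biotin on streptavidin. The step at which Input RNA was set aside is not stated, and no library came from cells without the mimic.

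MicroRNAs guide Argonaute proteins such as AGO2 to messenger RNAs, mostly by pairing of the seed, bases 2 to 8 of the microRNA, with a site in the 3′ untranslated region (3′ UTR). Bound messages are usually repressed and degraded. miR-146a is induced by NF-kB and restrains it by repressing the signalling proteins IRAK1 and TRAF6, and in senescent fibroblasts it is known for holding down the secretion of inflammatory cytokines. In a capture experiment of this kind, a message held by the mimic is read as one that is more abundant in miR-CLIP than in Input libraries.

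The sequences below show the microRNA and the places where the 8 messages could pair with its seed. The mature microRNAs are from RefSeq (GRCh38.p14), where miR-146a-5p lies on the plus strand at chr5:160485372-160485393, and capitals mark the seed. Its relative miR-146b-5p, at chr10:102436520-102436542, has the same seed, so the sites are shared.
miR-146a-5p: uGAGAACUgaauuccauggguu
miR-146b-5p: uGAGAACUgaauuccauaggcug

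Seed matches were searched on the sense strand of the longest annotated 3′ UTR of each gene (GENCODE release 29, GRCh38) as the 8-mer AGTTCTCA, the 7mer-m8 AGTTCTC, the 7mer-A1 GTTCTCA and the 6-mer GTTCTC. Each place was counted once, under the longest of these words. COPS8, BRCA1, BRCA2, BCLAF1 and EGFR held 7 matches of the 2 strongest kinds, of which 5 were 8-mers and 2 were 7mer-m8 sites. FADD, FAS and L1CAM held 0. Among 6294 tested coding genes with a 3′ UTR, 12.2% held a 7mer-m8 or 8-mer, 4.61% held an 8-mer and 1.59% held at least 2 such matches. The median 3′ UTR was 3386 nt in genes with a 7mer-m8 or 8-mer and 1123 nt in genes without. In the 5 members with such a match it was 1383 to 6011 nt long. The members were picked as reported targets, and enrichment of matches among them was not tested. A match is a run of letters and was not measured as a bound site. The 7 matches follow with the bases upstream of them, written as DNA of the transcribed strand, with the paired letters in capitals. The first COPS8 match lies at chr2:237097939-237097946 and the second at chr2:237100023-237100030, both on the plus strand. The BRCA1 match lies at chr17:43045171-43045178 on the minus strand and the BRCA2 match at chr13:32399354-32399360 on the plus strand. BCLAF1 has its match at chr6:136257640-136257647 on the minus strand. EGFR has its matches at chr7:55208168-55208175 and chr7:55209768-55209774 on the plus strand.
COPS8 first 8-mer: tgctgaatagttgttgaaacAGTTCTCA
COPS8 second 8-mer: tttcacttccctttattatcAGTTCTCA
BRCA1 8-mer: agtcagaatagtccttgggcAGTTCTCA
BRCA2 7mer-m8: gaggtaactcactatgaaatAGTTCTCc
BCLAF1 8-mer: aatatccattacatgtttagAGTTCTCA
EGFR 8-mer: aagattgtgcttcccaaaatAGTTCTCA
EGFR 7mer-m8: gtaactttgttgcgggatatAGTTCTCt

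The 7 matches, each taken with the bases upstream of it, differed in predicted pairing energy with miR-146a. This energy covers the seed match and the upstream bases together, which were not separated. RNAduplex, which predicts the pairing energy of a site with the microRNA (more negative means stronger), gave -19.0 kcal/mol for BRCA1 and -18.4 kcal/mol for the second COPS8 match. It gave -17.0 kcal/mol for the 7mer-m8 of EGFR, -14.5 kcal/mol for BCLAF1, -14.0 kcal/mol for BRCA2, -13.7 kcal/mol for the 8-mer of EGFR and -13.1 kcal/mol for the first COPS8 match. For comparison, the stretches with the first and second 8-mer of IRAK1, an NF-kB pathway target, gave -18.0 and -20.9 kcal/mol. These 8-mers lie close together in a 3′ UTR of 1359 nt, and the stretch of the second also holds the first.
IRAK1 first 8-mer: cccccaaatccggaagtcaaAGTTCTCA
IRAK1 second 8-mer: tcaaagttctcatggtcagaAGTTCTCA

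In most of these genes the match belonged to some transcripts only. It was present in 2 of 3 complete coding transcripts of COPS8, 5 of 10 of BRCA1, 1 of 2 of BRCA2, 2 of 6 of BCLAF1 and 1 of 6 of EGFR, and the gene-level values do not tell these transcripts apart. FADD and L1CAM had a single 6-mer each in the 3′ UTR. FAS had no match of any kind in its 3′ UTR of 1335 nt, and its one 7-base match was a 7mer-A1 in the coding sequence, at chr10:89012053-89012059 on the plus strand.
FAS coding 7mer-A1: agcacagaaaggaaaaccaagGTTCTCA

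**Figure D1:**
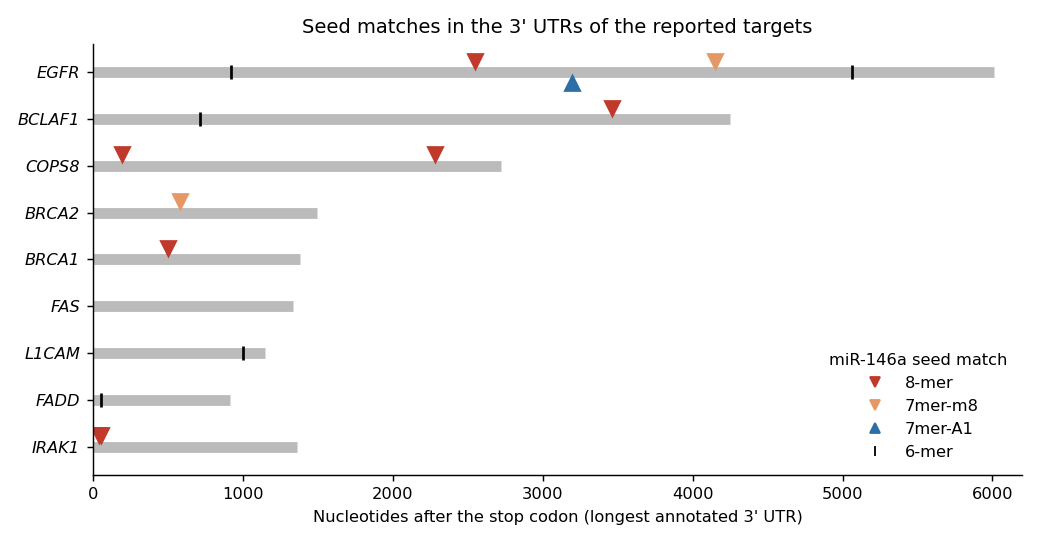
Positions of miR-146a seed matches along the longest annotated 3′ UTR (grey bars, nucleotides after the stop codon) of the 8 reported targets and of IRAK1. The 5 genes at the top hold an 8-mer or 7mer-m8, FAS holds none, L1CAM and FADD hold 6-mers only, and the 2 IRAK1 8-mers at positions 40 and 56 overlap as drawn.

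Values are normalised read counts: the deposited values have the form of reads per gene divided by one scaling factor per library. The rows held 6847837 to 12771968 reads per library, and members held 43 to 20171 reads. One miR-CLIP library, B, stood apart from the others of its group. Across genes, its log2 values had a Pearson correlation of 0.973 to 0.982 with the Input libraries, against 0.929 with miR-CLIP A and 0.911 with miR-CLIP C. miR-CLIP A and C were no tight pair either: their correlation was 0.942, and that of miR-CLIP A with the Input libraries was 0.940 to 0.952. Genes with at least 1 read numbered 11137 in miR-CLIP B, 8940 in miR-CLIP A and 7329 in miR-CLIP C, and 10204 to 11930 in the Input libraries. The fold change of each member is therefore given with all 6 libraries and again without miR-CLIP B, a choice made with the values of miR-CLIP B known. For partner genes that passed the test described below, fold changes are given only without miR-CLIP B. With all 6 libraries no partner gene passed. The fibroblast label was checked on 6 markers, whose summed values were 106908 to 133279 in miR-CLIP and 98811 to 154944 in Input libraries. The 6 epithelial markers summed to 536 to 2254 in miR-CLIP and 1016 to 1362 in Input, most of it KRT18, and CDH1 was at or near 0. Endothelial markers (4 in the table) summed to 124 to 237 in miR-CLIP and 157 to 246 in Input, and blood cell markers (5 in the table) to 10.3 to 41.3 in miR-CLIP and 8.67 to 25.1 in Input. Without miR-CLIP B, the low-count EPCAM, KRT8 and KRT19 passed the test described below as lower in miR-CLIP (3 of 5 tested epithelial markers), as did DCN (fibroblast) and CD14 (blood), and the collagens COL1A2 and COL3A1 passed as higher. Without miR-CLIP B, 16.1% of all tested genes were called lower and 12.6% higher. Among coding genes with transcripts of 213 to 1956 nt, where EPCAM, KRT8 and KRT19 fall, 36.4% were called lower. The part of these markers in the results was not tested.

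None of the 8 reported targets passed the test for a difference between miR-CLIP and Input when all 6 libraries were compared. The test was limma-trend on log2(value + 1), two-sided, with Benjamini-Hochberg adjustment over 8506 tested genes and a threshold of 0.05. It called 0 members and 0% of all tested genes. At an unadjusted p under 0.05 it passed 0 members and 6.44% of all tested genes, and edgeR, DESeq2 and limma-voom on the reads also passed 0 members at that level. The log2 fold change, miR-CLIP minus Input, was above 0 in 3 members and below 0 in 5, with a median of -0.21, and the median of all tested genes was -0.13. Without miR-CLIP B, FAS and L1CAM passed the test as lower in miR-CLIP, and 0 members passed as higher. In that comparison 16.1% of all tested genes were called lower and 12.6% were called higher, so 2 of 8 lower is not far from this overall share. Among coding genes with transcripts of 1957 to 3078 nt, where FAS falls, 18.5% were called lower. Among those of 4847 to 33679 nt, where L1CAM falls, 5.49% were called lower. The members' median was then -0.29, beside -0.22 for all tested genes. Neither FAS nor L1CAM had a 7mer-m8 or 8-mer in the 3′ UTR, and the 5 members with such a match had an adjusted p of 0.200 to 0.962 without miR-CLIP B.

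**Figure D2:**
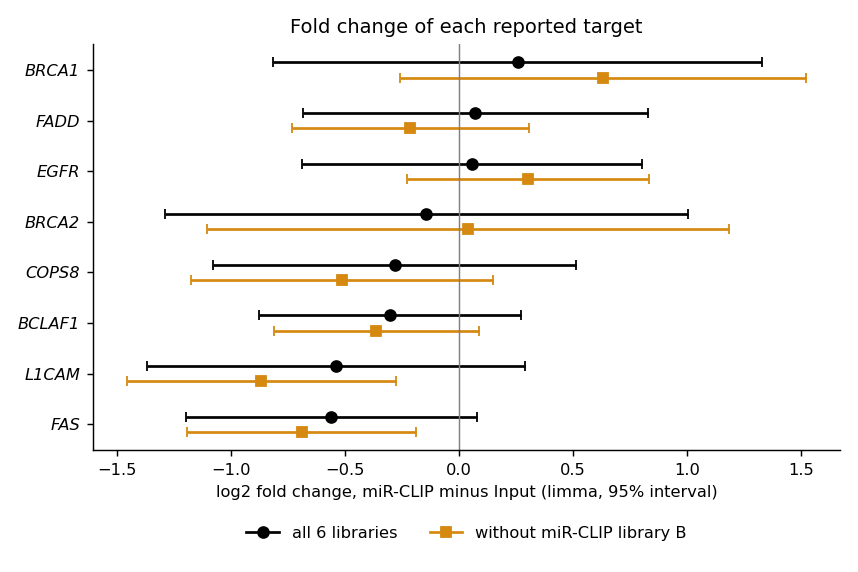
Log2 fold change, miR-CLIP minus Input, of each reported target with its 95% interval from limma, with all 6 libraries (black circles) and without miR-CLIP library B (orange squares). With all libraries every interval spans 0; without miR-CLIP B those of L1CAM and FAS lie below 0.

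COPS8 is a subunit of the COP9 signalosome, a complex that removes the NEDD8 modifier from cullin ubiquitin ligases. It had 571, 668 and 300 normalised reads in miR-CLIP A, B and C, against 681, 521 and 580 in Input A, B and C. miR-CLIP A and B lay inside the Input range, and miR-CLIP C was the lowest of the 6. The mean was 513 ± 191 in miR-CLIP and 594 ± 80.7 in Input (SD, n = 3 each), a log2 fold change of -0.28 ± 0.35 (SE; limma adjusted p = 0.756). The 95% interval, -1.08 to 0.51, includes changes in either direction. Without miR-CLIP B the value was -0.51 ± 0.29 (adjusted p = 0.217). The gene lies at chr2:237085312-237100466 (GRCh38, as deposited), and 10.7% of its exonic bases overlap AC105760.2 on the opposite strand, whose reads may not be told apart.

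Most COP9 subunits were called lower in miR-CLIP once miR-CLIP B was left out, and COPS8 was not among them. All 10 listed genes of the complex, COPS8 included, were tested, and 0 passed with all 6 libraries; their median log2 fold change was -0.77. Without miR-CLIP B, 7 of 10 passed as lower, COPS7B passed as higher, at 0.56 (adjusted p = 0.0441), and the median was -1.36, beside -0.22 for all tested genes. The share called lower was 16.1% over all tested genes, 36.4% among coding genes with transcripts of 213 to 1956 nt, where 5 of the 10 subunits fall, and 18.5% among those of 1957 to 3078 nt, where 4 fall. COPS2, a scaffold subunit, had 476, 1552 and 535 normalised reads in miR-CLIP A, B and C, against 1927, 1864 and 2598 in Input, a log2 fold change without miR-CLIP B of -2.06 ± 0.20 (adjusted p = 0.000956). GPS1, the first subunit of the complex, was at -1.74 (adjusted p = 0.00117), COPS6 at -1.57 (adjusted p = 0.000981) and COPS4 at -1.43 (adjusted p = 0.00193). COPS2 has 1 7mer-m8 or 8-mer match in its longest 3′ UTR, GPS1, COPS6 and COPS4 have 0, and COPS8 has 2. That COPS2 3′ UTR, of 5222 nt, belongs to another transcript than the 2036 nt one used for its length. Lengths are those of the transcript with the longest coding sequence. By these, COPS8 is the longest of the 10, at 4007 nt, and the list's median is 1869 nt. Subunits of similar length differed: COPS2 and GPS1 (2276 nt) were called lower, COPS7B (2051 nt) higher, and COPS7A (2127 nt) was at 0.06. The part of length was not tested. With each library corrected for length, and without miR-CLIP B, 5 of the 10 passed as lower, all of them among the 7. COPS7B passed as higher there, at 0.99 (adjusted p = 0.00737). Of 8475 genes in that comparison, 9.78% were called lower.

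BRCA1 and BRCA2 repair DNA double-strand breaks by homologous recombination. BRCA1 is a ubiquitin ligase that helps start end resection, and BRCA2 acts later, when the resected end is prepared for pairing. BRCA1 had 514, 150 and 210 normalised reads in miR-CLIP A, B and C, against 199, 178 and 267 in Input. Only miR-CLIP A stood above the Input range, miR-CLIP B was the lowest of the 6 and the groups overlapped. The mean was 291 ± 195 in miR-CLIP and 215 ± 46.6 in Input (SD, n = 3 each), with a log2 fold change of 0.26 ± 0.47 (adjusted p = 0.836; 95% interval -0.81 to 1.33). The sign rested on 1 library: without miR-CLIP A it was -0.25, and without miR-CLIP B it was 0.63 ± 0.39 (adjusted p = 0.252). BRCA1 lies at chr17:43044295-43170245.

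BRCA2, the least abundant of the 8, had 161, 63.5 and 53.8 normalised reads in miR-CLIP A, B and C, against 121, 82.3 and 74.6 in Input. As for BRCA1, miR-CLIP A was the highest of the 6 libraries, while miR-CLIP B and C lay below all Input libraries. The means were 92.8 ± 59.3 in miR-CLIP and 92.7 ± 25.0 in Input (SD, n = 3 each), and the log2 fold change was -0.14 ± 0.50 (adjusted p = 0.922; 95% interval -1.29 to 1.01). Without miR-CLIP B it was 0.04 ± 0.50 (adjusted p = 0.962). BRCA2 lies at chr13:32315474-32400266. Of 34 listed partners in this repair pathway, counting BRCA1 and BRCA2, 26 were tested and 0 passed with all libraries. Without miR-CLIP B, 2 passed as higher, the damage-sensing kinases ATR at 1.08 (adjusted p = 0.0133) and ATM at 0.81 (adjusted p = 0.0461). EME1, a subunit of a structure-specific nuclease, passed as lower at -3.77 (adjusted p = 0.0107), on means of 9.32 in miR-CLIP and 30.0 in Input over all 6 libraries. The shares of all tested genes called without miR-CLIP B were 12.6% higher and 16.1% lower. Among coding genes with transcripts of 4847 to 33679 nt, where ATR and ATM fall, 33.2% were called higher. The list's median was 0.19 without miR-CLIP B. With the length correction EME1 still passed, at -3.44 (adjusted p = 0.0145). ATR was at 0.61 there (adjusted p = 0.0586) and ATM at 0.15 (adjusted p = 0.643).

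FAS is the receptor through which Fas ligand triggers apoptosis, and FADD is the adaptor that couples it to caspase-8. FAS had 680, 750 and 481 normalised reads in miR-CLIP A, B and C, against 896, 817 and 1076 in Input. All 3 miR-CLIP libraries lay below all 3 Input libraries, with a gap of 67.8. The groups did not overlap in this direction in 7.34% of all tested genes. The mean was 637 ± 139 in miR-CLIP and 930 ± 132 in Input (SD, n = 3 each). The log2 fold change of -0.56 ± 0.28 missed the threshold (adjusted p = 0.611; 95% interval -1.20 to 0.08). Without miR-CLIP B it was -0.69 ± 0.22 (95% interval -1.19 to -0.19) and passed, at an adjusted p of 0.0475. A correction for transcript length ended that call, at -0.42 (adjusted p = 0.186). FAS lies at chr10:88990582-89015785, and 8.93% of its exonic bases overlap ACTA2, the smooth muscle actin gene, on the opposite strand.

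FADD had 497, 1090 and 731 normalised reads in miR-CLIP A, B and C, against 745, 761 and 602 in Input. The miR-CLIP libraries held both the lowest and the highest of the 6 values. The mean was 773 ± 299 in miR-CLIP and 703 ± 87.6 in Input (SD, n = 3 each), with a log2 fold change of 0.07 ± 0.33 (adjusted p = 0.942; 95% interval -0.68 to 0.83). Without miR-CLIP B the sign turned, to -0.21 ± 0.23 (adjusted p = 0.514). FADD lies at chr11:70203163-70207390, and 54.9% of its exonic bases overlap the antisense gene AP000879.1, so its value may hold reads of both strands.

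Among 30 listed genes of death receptor signalling, FAS and FADD included, 23 were tested. With all 6 libraries 0 passed and the median log2 fold change was 0.05. Without miR-CLIP B, 2 passed as higher and 4 as lower, FAS among them, which is no larger a share than the 12.6% higher and close to the 16.1% lower over all tested genes. APAF1, the core of the apoptosome, was higher at 1.65 (adjusted p = 0.00231), and CFLAR, the inhibitor that blocks caspase-8 activation, was higher at 0.72 (adjusted p = 0.0113). CYCS, cytochrome c, was lower at -1.94 (adjusted p = 0.00132), and BAX, which permeabilises mitochondria, was lower at -0.88 (adjusted p = 0.0325). APAF1 and CYCS also passed with the length correction, at 1.39 and -2.01, while CFLAR was at 0.02 and BAX at -0.18 there.

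BCLAF1, a nuclear protein that binds BCL2 family members and takes part in RNA processing, was the steadiest of the 8 in miR-CLIP. It had 1399, 1592 and 1422 normalised reads in miR-CLIP A, B and C, against 1664, 1592 and 2249 in Input. The highest miR-CLIP value and the lowest Input value differed by 0.00205, less than the 0.993 that 1 read is worth in miR-CLIP B, so the groups met. The mean was 1471 ± 105 in miR-CLIP and 1835 ± 361 in Input (SD, n = 3 each), and the log2 fold change was -0.30 ± 0.25 (adjusted p = 0.642; 95% interval -0.88 to 0.27). Without miR-CLIP B it was -0.36 ± 0.20 (adjusted p = 0.200). BCLAF1 lies at chr6:136256627-136289851 and also holds 2 7mer-m8 words in its coding sequence. Of 10 listed partners only BCLAF1 and ERH were in the table, and ERH, a small splicing-linked protein, passed as lower without miR-CLIP B, at -1.72 (adjusted p = 0.000981). In that comparison 16.1% of all tested genes were called lower. Among coding genes with transcripts of 213 to 1956 nt, where ERH falls, the share was 36.4%. With the length correction ERH still passed, at -0.92 (adjusted p = 0.0149).

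EGFR, the receptor of epidermal growth factor, was the most abundant of the 8. It had 12137, 7084 and 11446 normalised reads in miR-CLIP A, B and C, against 12352, 9033 and 7818 in Input. The Input range covered miR-CLIP A and C, and miR-CLIP B was the lowest of the 6. The mean was 10222 ± 2740 in miR-CLIP and 9734 ± 2347 in Input (SD, n = 3 each), with a log2 fold change of 0.06 ± 0.33 (adjusted p = 0.952; 95% interval -0.69 to 0.80). Without miR-CLIP B it was 0.30 ± 0.23 (adjusted p = 0.359). EGFR lies at chr7:55019021-55211628, and 1.49% of its exonic bases overlap EGFR-AS1. Of 19 listed ERBB receptors, ligands and adaptors, EGFR included, 16 were tested and 0 passed with all libraries, with a median of -0.0014. Without miR-CLIP B the ligands AREG and EREG passed as lower, at -1.42 (adjusted p = 0.00876) and -1.22 (adjusted p = 0.0315). CBL, the ubiquitin ligase that marks the receptor for degradation, and EPS8, an actin-regulating substrate, passed as higher, at 0.81 (adjusted p = 0.0170) and 0.73 (adjusted p = 0.0328). Over all tested genes the shares called without miR-CLIP B were 12.6% higher and 16.1% lower. With the length correction EREG still passed, at -1.37 (adjusted p = 0.0310). EPS8 was nearly as high there, at 0.69 (adjusted p = 0.0569), while AREG was at -0.55 (adjusted p = 0.206) and CBL at 0.20 (adjusted p = 0.571).

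L1CAM is a cell adhesion molecule of the immunoglobulin superfamily, best known from neurons, that binds ankyrins inside the cell. It had 1616, 2807 and 1250 normalised reads in miR-CLIP A, B and C, against 3491, 2540 and 1968 in Input. miR-CLIP A and C lay below all Input libraries, and miR-CLIP B lay inside the Input range. The mean was 1891 ± 814 in miR-CLIP and 2666 ± 769 in Input (SD, n = 3 each). The log2 fold change was -0.54 ± 0.36 (adjusted p = 0.611; 95% interval -1.37 to 0.29). Without miR-CLIP B it was -0.87 ± 0.26 (95% interval -1.46 to -0.28) and passed, at an adjusted p of 0.0376. L1CAM lies at chrX:153861514-153909223 as deposited. The gene model used for its length, matches and overlaps is shorter, at chrX:153861514-153886174. In that model 6.04% of its exonic bases overlap U52112.1 on the same strand and 4.94% overlap LCA10 on the opposite strand. Of 11 listed genes of the L1 family and its partners, L1CAM included, 9 were tested and 0 passed with all libraries, with a median of 0.25. Without miR-CLIP B the ankyrins ANK2 and ANK3 passed as higher, at 1.37 (adjusted p = 0.0105) and 0.86 (adjusted p = 0.0272), and L1CAM was the 1 gene that passed as lower. In that comparison 12.6% of all tested genes were called higher and 16.1% lower. Among coding genes with transcripts of 4847 to 33679 nt, where the ankyrins and L1CAM fall, these shares were 33.2% and 5.49%. With the length correction ANK2 was at 0.67 (adjusted p = 0.142) and ANK3 at 0.11 (adjusted p = 0.785).

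In place of IRF5, its family can be described. Of 9 listed interferon regulatory factors, 6 were tested, and 0 passed either with all 6 libraries or without miR-CLIP B. Their median log2 fold change was -0.09 with all libraries and -0.27 without miR-CLIP B.

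**Figure D3:**
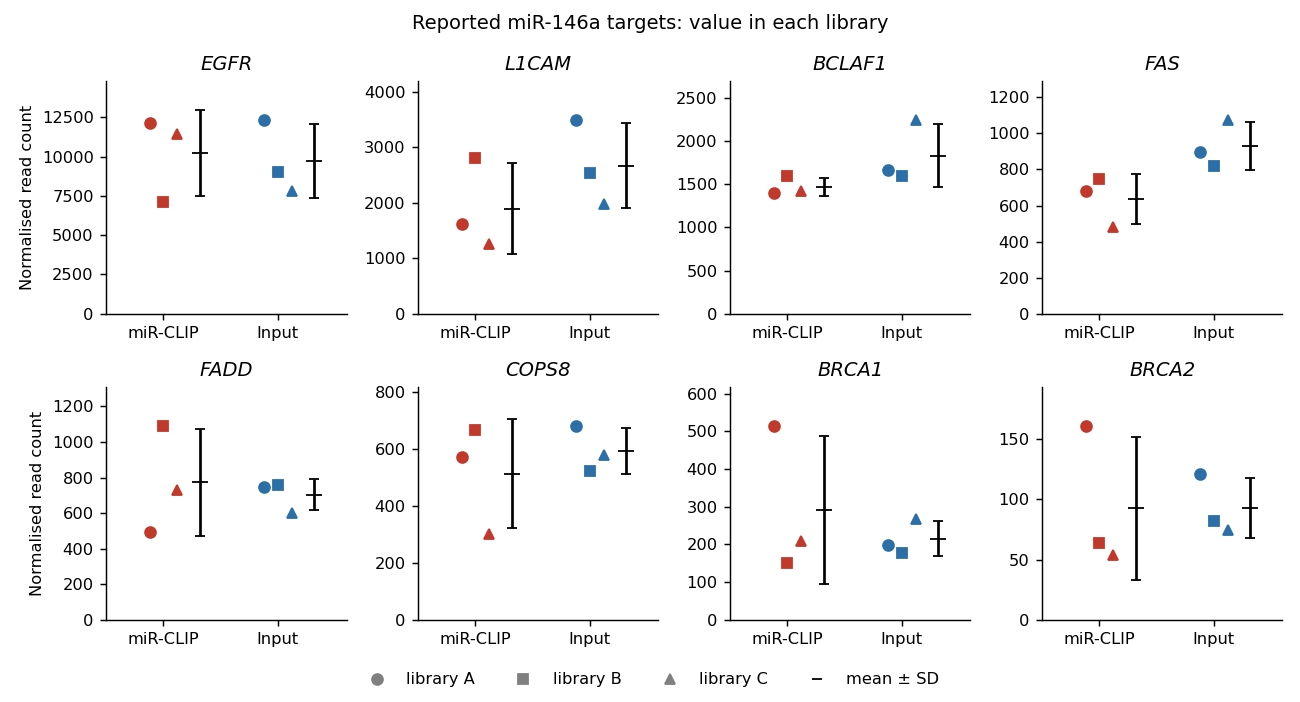
Normalised read counts of the 8 reported targets in each miR-CLIP library (red) and Input library (blue), with the mean and SD of each group (n = 3) beside the points; each panel has its own axis from 0. For FAS all miR-CLIP points lie below all Input points, and for BRCA1 and BRCA2 miR-CLIP A is the highest of the 6.

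**Figure D4:**
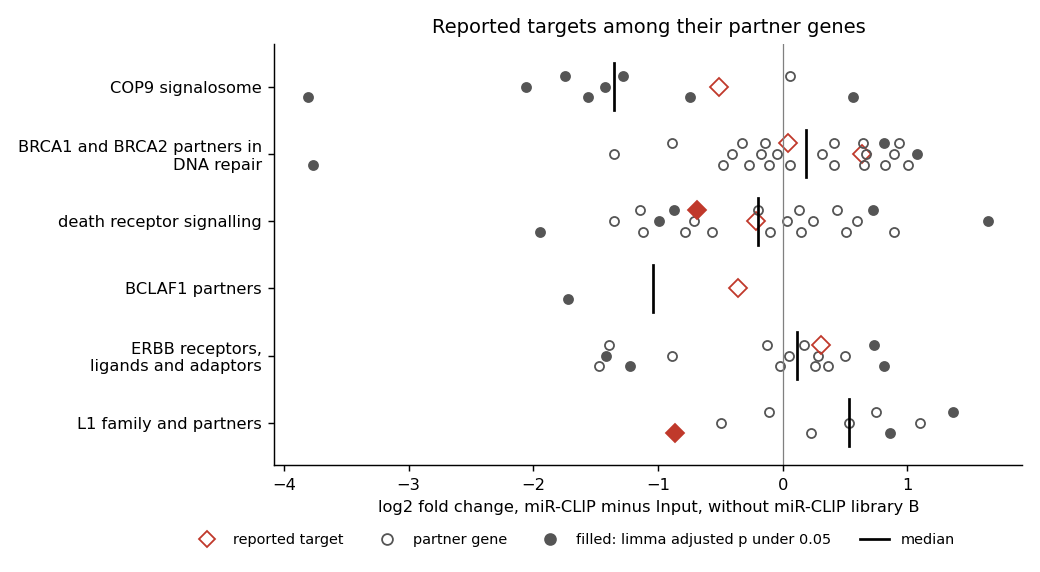
Log2 fold change without miR-CLIP library B, miR-CLIP minus Input, of the reported targets (diamonds) and the tested genes of their partner lists (circles), with filled symbols for a limma adjusted p under 0.05 and a bar at each list's median. COPS8 lies to the right of 7 filled COP9 subunits, and L1CAM is the 1 filled symbol below 0 in its list.

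Spread between libraries was larger in miR-CLIP than in Input for 7 of the 8 members, BCLAF1 being the exception, with an SD of log2 values of 0.10 in miR-CLIP and 0.27 in Input. Over all tested genes the median SD was 0.77 in miR-CLIP and 0.27 in Input. miR-CLIP A and C differed from the Input mean in the same direction in 5 of 8 members and in 6208 of 8506 tested genes, and miR-CLIP B lay opposite to both in 3 of 8 members and in 3815 tested genes.

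Transcript length moved with the difference from Input, in opposite directions in miR-CLIP B and in the other two libraries. Among coding genes with transcripts of 4847 to 33679 nt, the median log2 difference from the Input mean was 0.57 and 0.36 for miR-CLIP A and C, but -0.26 for miR-CLIP B. Among those of 213 to 1956 nt it was -0.83 and -0.88 for miR-CLIP A and C, but 0.46 for miR-CLIP B. BRCA1, BRCA2, BCLAF1, EGFR and L1CAM fall in the class of the longest transcripts. EGFR had the sign of its length class in every miR-CLIP library, at 0.35, -0.43 and 0.26 in order A to C. L1CAM was at -0.68, 0.11 and -1.05, and BCLAF1 at -0.37, -0.19 and -0.35, so both lay below their class in A and C. EGFR, FAS and COPS8 also lay below their class medians in A and C. FAS was at -0.44, -0.30 and -0.94, and the medians of its class in A and C were -0.22 and -0.29. COPS8 was at -0.05, 0.18 and -0.97, and the medians of its class in A and C were 0.16 and 0.00. FADD, in the shortest class, lay above its class in all 3, at -0.49, 0.64 and 0.07.

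With each library corrected for transcript length by a loess curve, 0 members passed with all 6 libraries. Without miR-CLIP B the correction left L1CAM as called, at -1.09 (adjusted p = 0.0150) and added BCLAF1 as lower, at -0.77 (adjusted p = 0.0277), while FAS no longer passed. In that comparison 9.78% of 8475 genes were called lower. EGFR changed sign with the correction, to -0.20 with all libraries. Length itself was not tested as a cause.

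**Figure D5:**
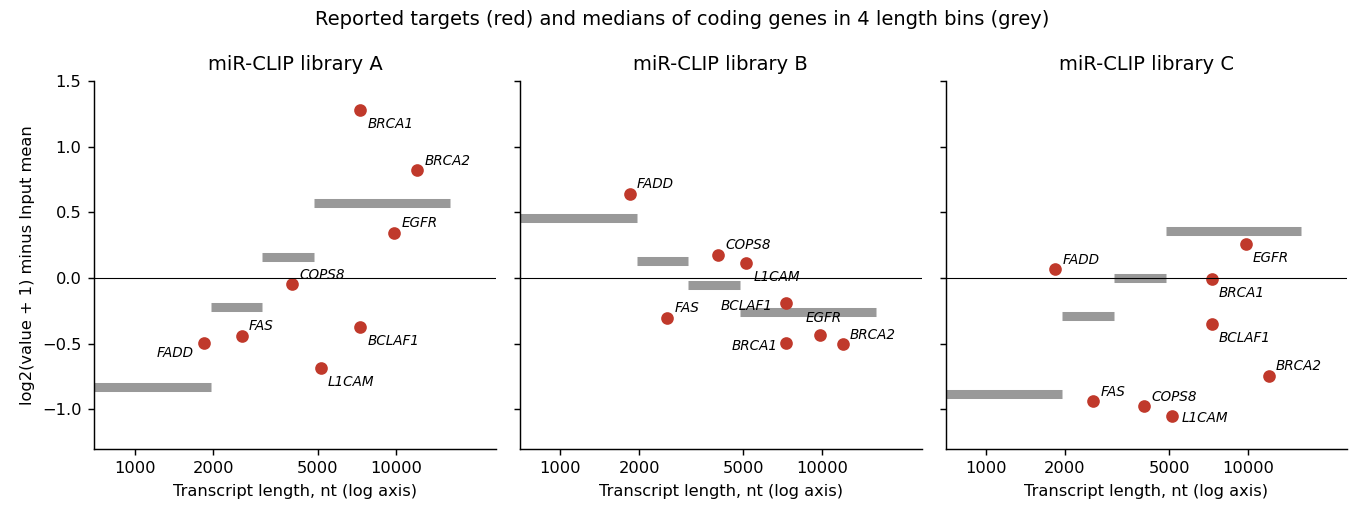
Log2 difference from the Input mean of each reported target (red) against transcript length (nt, log axis), 1 panel per miR-CLIP library, with the median of all tested coding genes in 4 length classes (grey bars, whose outer ends are trimmed to the axis range). Medians climb with length in A and C and descend in B. L1CAM, BCLAF1, EGFR, FAS and COPS8 lie below the bars of their classes in A and C.

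Of the reported miR-146a targets inside NF-kB signalling, 3 were tested, and their values stand here beside those of the members. IRAK1, one of the signalling proteins through which miR-146a restrains NF-kB, had 3655, 1599 and 3486 normalised reads in miR-CLIP A, B and C, against 1615, 1573 and 1071 in Input. Its log2 fold change was 0.97 ± 0.37 (adjusted p = 0.611), and 1.35 without miR-CLIP B (adjusted p = 0.00384). CARD10, an NF-kB scaffold protein, was at 1.53 ± 0.70 with all libraries (adjusted p = 0.611) and at 2.22 without miR-CLIP B (adjusted p = 0.0166). IRAK2, a relative of IRAK1 with 0 matches of the 7mer-m8 or 8-mer kind, was at 0.42 ± 0.40 with all libraries (adjusted p = 0.675) and at 0.55 without miR-CLIP B (adjusted p = 0.336). Without miR-CLIP B, 12.6% of all tested genes were called higher. Among coding genes with transcripts of 3079 to 4845 nt, where all 3 fall, this share was 18.6%. An exact permutation test compared each member's log2 ratio to IRAK1 between miR-CLIP and Input, with a Benjamini-Hochberg adjusted p of 0.2 to 0.4. With 3 libraries against 3 its smallest possible p is 0.1, so it could not pass the threshold, and no conclusion is drawn from it. The difference of the members from CARD10 and IRAK2 was not tested. IRAK1 and CARD10 were named with their values known.

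Levels were compared between members as normalised reads per kilobase of transcript. In Input, EGFR stood at 991 ± 239, L1CAM at 519 ± 150, FADD at 382 ± 47.6 and FAS at 363 ± 51.6 (SD, n = 3). BCLAF1 stood at 253 ± 49.6, COPS8 at 148 ± 20.1, BRCA1 at 29.5 ± 6.41 and BRCA2 at 7.74 ± 2.09. In this order L1CAM and FADD, and FADD and FAS, were closer than their SDs, and the other neighbours lay further apart. In miR-CLIP the same measure was 1041 ± 279 for EGFR, 420 ± 162 for FADD, 368 ± 158 for L1CAM and 249 ± 54.3 for FAS, which puts FADD before L1CAM by less than their SDs. It was 203 ± 14.5 for BCLAF1, 128 ± 47.6 for COPS8, 40.1 ± 26.9 for BRCA1 and 7.74 ± 4.95 for BRCA2. In RNA from whole cultures, fewer cells expressing a gene and less RNA of it per cell cannot be told apart.

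In the authors' deposited table, the linear fold (miR-CLIP over Input) of the members ran between 0.686 for FAS and 1.36 for BRCA1. The authors' deposited table gives p-values of 0.127 for FAS, 0.300 for L1CAM, 0.352 for BCLAF1, 0.502 for BRCA1, 0.593 for COPS8, 0.767 for FADD, 0.871 for EGFR and 0.998 for BRCA2. The adjusted p in the authors' deposited table is 1 for all 8.

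The genes whose values across the 6 libraries were most like each member's were listed among 4339 genes with a mean of at least 100. Likeness was the Pearson correlation of log2(value + 1), and all 6 points share their libraries and scaling with every other gene. FADD was most like ERMARD (0.998) and GLMP (0.990), and FAS was most like ATP1B1 (0.995) and CEP57L1 (0.992). For L1CAM the likeness to GID4 was 0.989, and EGFR was most like LINC00641 (0.994) and ATRN (0.992). BRCA1 was most like ECT2 (0.994) and DST (0.990), and BRCA2 was most like FZD1 (0.976) and ERBB2 (0.970). COPS8 was most like GADD45B (0.988) and DDB2 (0.981), and BCLAF1 was most like ESM1 (0.981) and FRG2FP (0.966).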

How the data were processed

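RNA-seq libraries, depleted of ribosomal RNA with KAPA RNA HyperPrep RiboErase per the labels' protocols, were grouped by their titles into 3 miR-CLIP and 3 Input libraries. The authors deposited 1 signal value per gene and library. In all 6 columns 100% of values were whole multiples of the smallest value within 1e-06, so reads were recovered by division. Beside these stand the authors' linear fold (the ratio miR-CLIP over Input) and their p-value, raw and adjusted, per the file headers. DESeq2 1.22.2, STAR 2.5.1b, Trimmomatic 0.35 and build GRCh38 are listed, without their roles, in the submitters' processing notes. The counting program and the strand setting it used are not stated there.

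The 8 members and the partner lists were chosen with earlier results of these data known. The 8506 genes that reached a value of 1 in 3 or more libraries were tested with limma-trend (R 4.3.3, limma 3.58.1) on log2(value + 1), a scale that understates the change of low genes, with group as the only term; the script was tested on simulated data. edgeR 4.0.16, DESeq2 1.42.0 and limma-voom on recovered reads, other pseudocounts, filters and scalings, each library left out, a block by column letter and a loess correction for transcript length (span 0.5) were alternatives; leaving out miR-CLIP B together with edgeR or the length correction was added after seeing the data. Gene models were from GENCODE release 29, which held 18143 of 18234 identifiers. For coding genes, length was that of the transcript with the longest coding sequence, while seed matches were searched in the longest 3′ UTR. These can be different transcripts of a gene. Pairing energies were from RNAduplex 2.7.2. Named genes were the members, up to 4 list genes per list that passed in any leave-one-out fit (by smallest p), IRAK1, CARD10, IRAK2 (added after its values were seen) and the 2 nearest patterns of each member, of which 1, for L1CAM, is not reported here. Library columns carry letters that the labels do not tie to replicate numbers. The labels do not say whether replicates were separate cultures, so the p-values reflect only how these libraries varied, which may be technical.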

Additional observations from a re-analysis of the deposited data

How the results depend on the processing

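With 3 libraries against 3 and a large spread in miR-CLIP, the intervals of all 8 members include 0, and changes inside them are not excluded. Counting error weighs most on BRCA2, the member with the fewest reads (43 in 1 library). The count of genes called was 0 with all 6 libraries and at most settings; DESeq2 called 2. Leaving out each library gave 0 to 2442 calls, the highest without miR-CLIP B, where edgeR called 2344 and the length correction 1819. The letters of the columns were not taken as pairs, since the correlation of deviations was 0.14, 0.107 and 0.0857 for A, B and C; with a replicate block by letter the count was 0. Of 152 member values at other settings, 132 kept their direction and side of the threshold, 6 newly passed it and 14 changed sign; the cause was not tested. Of these sign changes, 10 came from leaving out 1 library and lie in the ranges below. The other 4 were EGFR at -0.20 with the length correction and -0.25 with it and without miR-CLIP B, and, with edgeR without miR-CLIP B, BRCA2 at 0.11 and FADD at -0.28. Leaving out each library in turn gave -0.51 to 0.065 for COPS8, -0.25 to 0.63 for BRCA1, -0.62 to 0.16 for BRCA2, -0.21 to 0.35 for FADD, -0.087 to 0.30 for EGFR, -0.69 to -0.37 for FAS, -0.40 to -0.15 for BCLAF1 and -0.87 to -0.28 for L1CAM. Without miR-CLIP B, edgeR gave FAS -0.77 (adjusted p = 0.0262) and L1CAM -0.99 (adjusted p = 0.0180). The median of all tested genes was -0.13, and -0.00 with the length correction, -0.01 for genes with a mean of at least 20 and -0.03 with edgeR. The same 5 members held a 7mer-m8 or 8-mer when the 3′ UTR of the longest coding model was searched.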
